A study of Mus musculus with 6 samples.

Results

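Wnt2, Wnt4, Wnt5a, Wnt5b, Wnt11 and Wnt16, which encode secreted Wnt ligands, and Axin2, a target gene of β-catenin, were described across the cell populations and time points of tibial fracture repair. The 7 genes were taken by their symbols from the gene lists of the count matrices, where they are 7 of the 30406 genes common to all libraries. The study profiled single nuclei (snRNA-seq) of wild-type C57BL/6ScNj mice (labelled C57BL6), 12 weeks old, males and females mixed. The samples were 2 libraries of periosteum scraped from uninjured tibias, 2 libraries at day 3 after an open and non-stabilized tibial fracture, 1 library at day 5 and 1 library at day 7. Fractured samples held injured periosteum together with the hematoma or callus. Each library pooled several mice (tibias of 4 mice when uninjured, of 4 to 9 mice after fracture), so the spread between libraries of a group is the spread between pools, and no single animal can be followed.

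Wnt ligands are lipid-modified proteins that need the acyltransferase Porcn and the carrier Wls to leave the cell, and that bind Frizzled receptors together with co-receptors such as Lrp5, Lrp6, Ror1 and Ror2. In the canonical branch, binding stabilizes β-catenin, which with TCF/LEF factors switches on feedback genes such as Axin2. Wnt5a, Wnt5b and Wnt11 are best known for non-canonical signals through Ror receptors and calcium, Wnt4 and Wnt16 can act in either branch, and Wnt16 is known in bone as a regulator of cortical bone. In the growth plate, Wnt5a and Wnt5b are known to act on the proliferation and maturation of chondrocytes.

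The matrices listed 655 to 4712 barcodes and 1499281 to 29796296 unique molecular identifiers (UMIs, 1 per captured RNA molecule) per library, and pairs of libraries shared between 0 and 7 barcodes. After filters and removal of myogenic nuclei, 6312 nuclei were clustered, 365 to 2098 per library. Populations were named from marker lists with the suffix "-like", since no deposited annotation was used. SSPC stands for skeletal stem/progenitor cells and IIFC for injury-induced fibrogenic cells, the fibrogenic population that the study follows between them and bone or cartilage. Levels are given on the CPM scale, the UMIs of a gene as a share of all UMIs in the summed nuclei. The names rest on markers such as Pi16 at 1120 CPM in SSPC-like nuclei, Postn at 3084 CPM in IIFC-like nuclei, Runx2 at 5290 CPM and Ibsp at 1910 CPM in osteoblast-like nuclei, and Col2a1 at 3926 CPM in chondrocyte-like nuclei. One cluster of 194 nuclei, led by Fat3, Intu and Tnfrsf19, scored alike for the IIFC (2.98) and osteoblast (2.94) lists and was kept without a name. It is called the Fat3 cluster here, and held Runx2 at 5277 CPM and Sp7 at 186 CPM. Of its nuclei, 193 were called osteoblast-like at a coarser cluster resolution, 149 with a looser filter on nuclei and 139 without integration. The larger fibroblast-like cluster, 683 of 784 such nuclei, scored 2.45 for the fibroblast list and 2.61 for the IIFC list. It took the fibroblast-like name because Bmper of that list, and no IIFC marker, was among its 10 leading genes. Most of these nuclei had no name, and so were not counted as stromal, at the coarser resolution (675), with the looser filter (617) and without integration (516). The Fat3 cluster forms the 2751 stromal nuclei together with the nuclei named SSPC-like, chondrocyte-like, osteoblast-like, IIFC-like or fibroblast-like, 124 to 1094 per library. The same name can cover different clusters over time: of the uninjured replicate 2 nuclei called IIFC-like, 46 of 65 belonged to a cluster led by Gm42418 and Lars2 with a median of 775 UMIs per nucleus, whereas a cluster led by Brinp3, Fhod3 and Ltbp2, with a median of 4319, held 61 of 73 and 121 of 129 IIFC-like nuclei at day 3, 333 of 462 at day 5 and 155 of 337 at day 7.

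All 7 are protein-coding genes, given here with their GRCm38 positions. Wnt2 lies at chr6:17988940-18030585 on the minus strand, Wnt5b at chr6:119432531-119544347 on the minus strand, Wnt16 at chr6:22288227-22298522, Wnt4 at chr4:137277489-137299726, Wnt5a at chr14:28504750-28527448, Wnt11 at chr7:98835112-98855195 and Axin2 at chr11:108920349-108950783, the last 5 on the plus strand. Genes on the opposite strand overlap 4 of them: Fbxl14 overlaps Wnt5b, Gm2670 overlaps Wnt5a, Gm8398 overlaps Wnt11 and Gm11670 overlaps Axin2. No other gene on the same strand overlaps any of the 7. The strand setting of the counting was not given in the sources used here. Whether reads of these opposite-strand partners were counted with theirs was not checked.

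Promoter sequences of 4 of the genes are shown because the pathway's own target motif can be looked for in them. RefSeq (GRCm38.p6) gave windows of 250 bases before an annotated start for 6 of the 7 genes. The printed windows overlap no annotated gene. They belong to Wnt5b (chr6:119544348-119544597, minus strand), Wnt16 (chr6:22287977-22288226, plus strand), Wnt11 (chr7:98834862-98835111, plus strand) and Axin2 (chr11:108920099-108920348, plus strand). Each is written 5′ to 3′ on the gene's strand and ends at the base before the start, and capitals mark the TCF/LEF motif CTTTGA or its reverse complement TCAAAG.
Wnt5b: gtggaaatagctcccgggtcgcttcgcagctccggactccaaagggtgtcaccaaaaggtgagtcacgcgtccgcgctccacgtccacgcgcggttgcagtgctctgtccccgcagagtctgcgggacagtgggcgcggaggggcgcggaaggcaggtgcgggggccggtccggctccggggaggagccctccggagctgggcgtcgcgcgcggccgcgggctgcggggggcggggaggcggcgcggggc
Wnt16: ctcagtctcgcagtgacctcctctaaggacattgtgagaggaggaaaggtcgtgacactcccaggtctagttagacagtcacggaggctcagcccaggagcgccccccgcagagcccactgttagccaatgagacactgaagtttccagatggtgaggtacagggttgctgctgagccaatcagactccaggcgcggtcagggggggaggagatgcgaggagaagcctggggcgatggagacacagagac
Wnt11: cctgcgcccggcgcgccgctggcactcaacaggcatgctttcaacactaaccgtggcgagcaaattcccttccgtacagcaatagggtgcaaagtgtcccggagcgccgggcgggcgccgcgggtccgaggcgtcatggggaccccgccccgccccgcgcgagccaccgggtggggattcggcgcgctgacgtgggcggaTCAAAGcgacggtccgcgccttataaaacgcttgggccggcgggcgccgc
Axin2: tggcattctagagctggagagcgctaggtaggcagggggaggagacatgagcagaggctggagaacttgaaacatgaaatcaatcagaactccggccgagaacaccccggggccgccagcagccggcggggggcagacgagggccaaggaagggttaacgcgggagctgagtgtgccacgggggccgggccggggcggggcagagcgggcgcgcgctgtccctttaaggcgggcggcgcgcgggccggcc
The TCF/LEF motif, searched on both strands, stood 50 bases before the start in the Wnt11 window, and in no position of the printed Wnt5b, Wnt16 and Axin2 windows. Another Wnt5b window, before an annotated start inside the gene, also held it, 71 bases before that start. Of all 32851 windows of this length, 13.83% held the motif. The RUNX motif TGTGGT, present in 14.05% of all windows on either strand, was in none of the windows of these genes. A match is only a match of letters.

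Wnt5b gave 1582 UMIs in 700 nuclei, Wnt5a 351 in 260 nuclei, Wnt16 186 in 107 nuclei, Wnt2 134 in 77 nuclei, Axin2 119 in 91 nuclei, Wnt4 90 in 85 nuclei and Wnt11 65 in 55 nuclei. These totals are not compared as levels between genes, since long introns also give UMIs in nuclei. Stromal nuclei were 43.6% of all nuclei and held 85.7% of the Wnt5b UMIs, 82.1% of those of Wnt2, 81.5% of those of Wnt5a and of Wnt11, 77.4% of those of Wnt16 and 66.4% of those of Axin2. Wnt4 was the exception, with 37.8% of its UMIs in stromal nuclei. Most nuclei had no UMI of any of the 6 ligands (5217 of 6312, 82.7%), 933 had UMIs of 1 ligand, 137 of 2 ligands, 23 of 3 and 2 of 4.

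**Figure D1:**
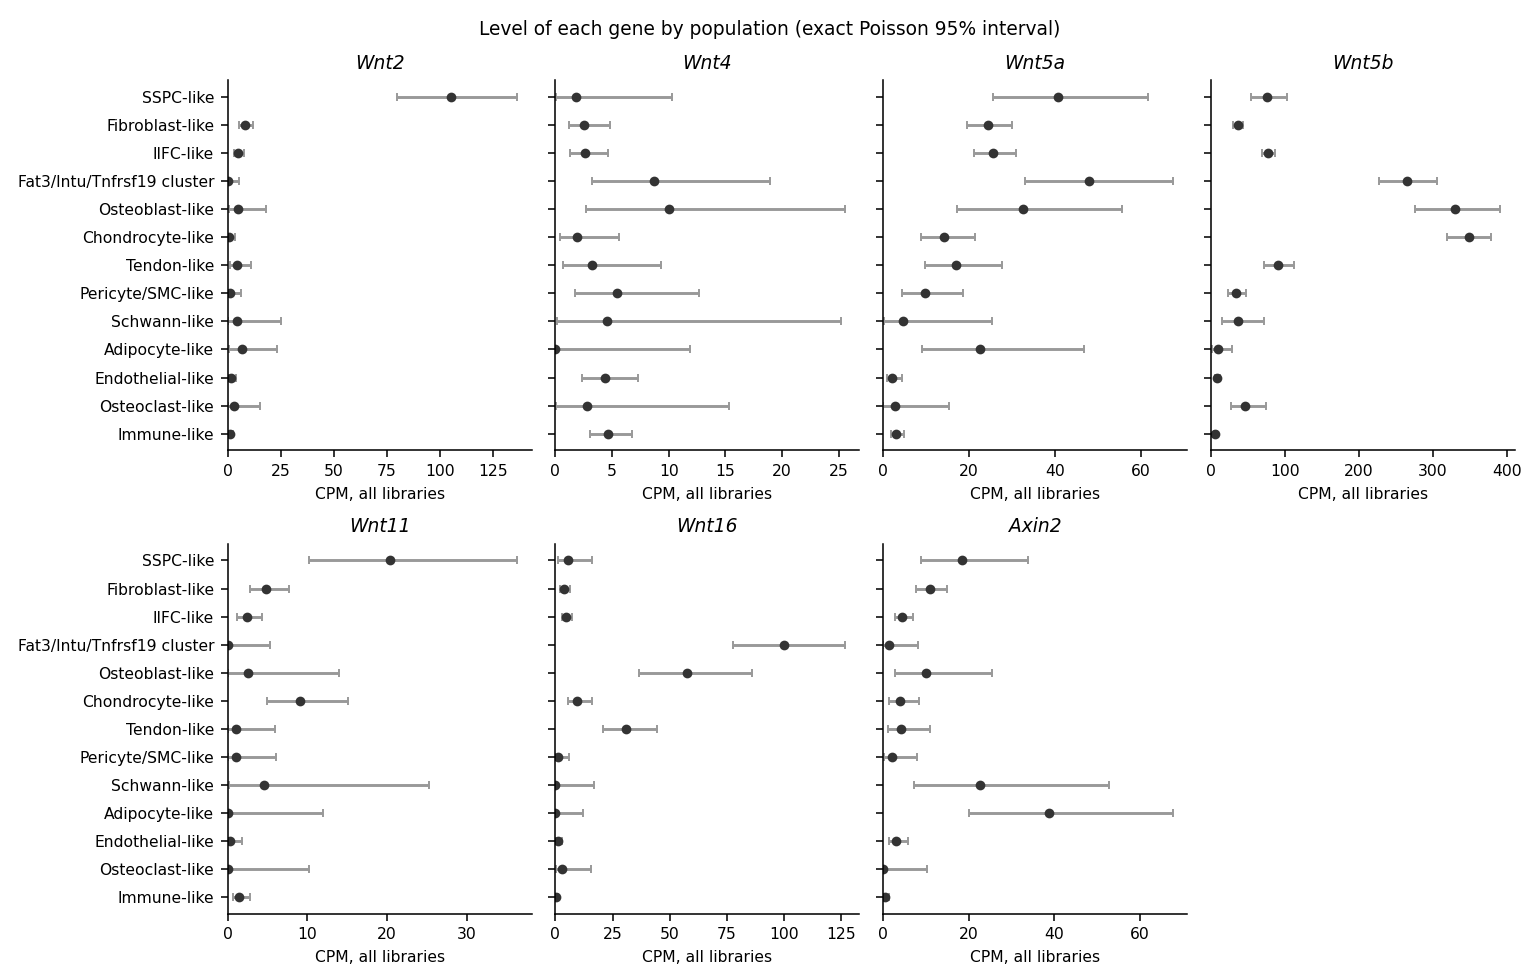
Level of each gene (x axis, CPM of the summed nuclei of all libraries) in 13 populations (y axis), with exact Poisson 95% intervals that cover counting error only. Wnt5b was highest in chondrocyte-like (348 CPM) and osteoblast-like (330 CPM) nuclei, Wnt16 in the Fat3 cluster (100.2 CPM) and Wnt2 in SSPC-like nuclei (105 CPM).

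Wnt5b, a non-canonical ligand, was highest in the skeletal populations. Chondrocyte-like nuclei held 348 CPM (95% Poisson interval 319 to 379, 541 UMIs), osteoblast-like nuclei 330 CPM (276 to 391, 132 UMIs) and the Fat3 cluster 264 CPM (227 to 306, 182 UMIs). The first and second did not differ beyond counting error, nor did the second and the last, while the intervals of chondrocyte-like nuclei and the Fat3 cluster did not overlap. Within day 5, the intervals of these populations overlapped, at 317, 363 and 267 CPM in the same order. A second tier of tendon-like (90.5 CPM), IIFC-like (77.6 CPM) and SSPC-like (75.7 CPM) nuclei had overlapping intervals, and fibroblast-like nuclei (36.5 CPM, 30.5 to 43.3) lay below them. Endothelial-like (8.72 CPM) and immune-like (5.89 CPM) nuclei were at the low end, with adipocyte-like nuclei (9.69 CPM, 3 UMIs).

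After each nucleus was thinned to 500 UMIs, 12.4% of chondrocyte-like nuclei (52 of 418, 95% Clopper-Pearson interval 9.43 to 16.0%) and 11.8% of osteoblast-like nuclei had a Wnt5b UMI, against 0.463% of immune-like nuclei (0.186 to 0.952%). Median depths were similar, 2320 UMIs in chondrocyte-like and 2200 in immune-like nuclei. Without thinning, the shares were 42.0%, 31.6% and 1.65%. The share in immune-like nuclei serves as a rough level for free RNA in droplets, and the skeletal populations lay above it. It pools libraries, whereas free RNA belongs to each library. By library, immune-like nuclei held 3.89 CPM at day 5 (4 UMIs) and 25.2 CPM at day 7 (3 UMIs, up to 73.5 CPM). Chondrocyte-like nuclei of these libraries held 317 and 419 CPM.

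Before injury, the Wnt5b level of the Fat3 cluster and of osteoblast-like nuclei rests on uninjured replicate 2. In the Fat3 cluster it was 398 CPM in uninjured replicate 2 (58 UMIs), 33.8 CPM in day 3 replicate 2 (3 UMIs), 267 CPM at day 5 (107 UMIs) and 139 CPM at day 7 (5 UMIs). In day 3 replicate 1 it was 532 CPM (229.6 to 1048, 8 UMIs in 3 nuclei), so the day 3 replicates differed beyond counting error, and in uninjured replicate 1 a single UMI fell in 2 nuclei. Osteoblast-like nuclei held 450.3 CPM in uninjured replicate 2 (12 UMIs), 248 CPM in day 3 replicate 2 (16 UMIs), 363 CPM at day 5 (94 UMIs) and 266 CPM at day 7 (10 UMIs), with overlapping intervals. The 4 osteoblast-like nuclei of uninjured replicate 1 and the 3 of day 3 replicate 1 had no Wnt5b UMI, which allows up to 677 and 369 CPM at the floor of 3 UMIs.

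In IIFC-like nuclei, Wnt5b was 32.7 CPM in uninjured replicate 2 (4 UMIs), 24.1 and 35.3 CPM in the day 3 replicates (5 and 32 UMIs), 102 CPM at day 5 (89.3 to 115, 242 UMIs) and 76.0 CPM at day 7 (47 UMIs). The day 5 interval lay above those of both day 3 libraries, but day 5 is a single library and the difference has no replicate check. Chondrocyte-like nuclei came almost entirely from days 5 and 7, with 160 and 245 nuclei. Their Wnt5b level was 317 CPM at day 5 (281 to 355, 293 UMIs) and 419 CPM at day 7 (368 to 476, 239 UMIs). In the 6 chondrocyte-like nuclei of day 3 replicate 2 it was 190 CPM (82.1 to 375, 8 UMIs). SSPC-like nuclei held 99.3 and 103 CPM in the uninjured libraries (4 and 35 UMIs) and 12.3 CPM at day 5 (1 UMI).

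**Figure D2:**
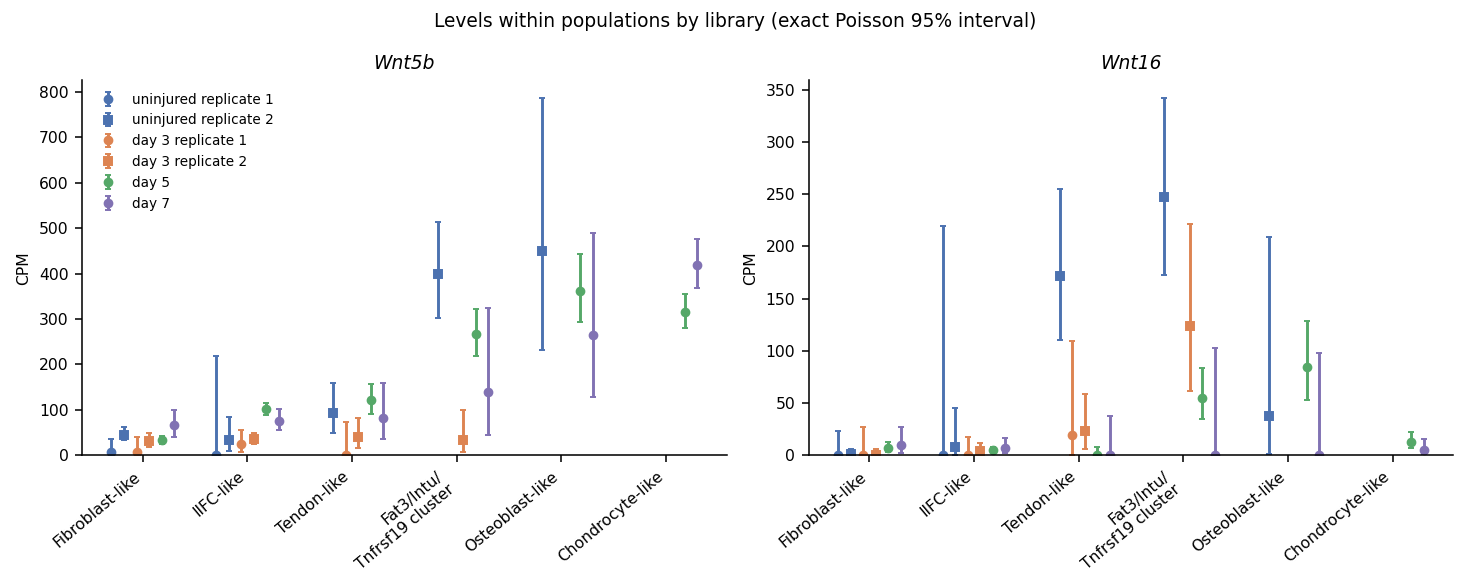
Wnt5b (left) and Wnt16 (right) in CPM (y axis) within 6 populations (x axis), 1 point per library with its exact Poisson 95% interval. Populations with under 10 nuclei in a library are not drawn. Wnt5b in chondrocyte-like nuclei was 317 CPM at day 5 and 419 CPM at day 7, and Wnt16 in the Fat3 cluster was 247 CPM in uninjured replicate 2 and 54.9 CPM at day 5.

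The populations that held the Wnt5b RNA differed between the libraries of the time course. At day 5, chondrocyte-like nuclei held 33.8% of the library's 867 Wnt5b UMIs (95% interval 30.6 to 37.1%) while they were 7.63% of its nuclei, and IIFC-like nuclei held 27.9%. At day 7, chondrocyte-like nuclei held 69.1% of 346 UMIs (63.9 to 73.9%) and were 22.2% of nuclei, and IIFC-like nuclei held 13.6%. In uninjured replicate 2, the Fat3 cluster held 58, fibroblast-like nuclei 41 and SSPC-like nuclei 35 of the library's 209 Wnt5b UMIs. In day 3 replicate 2, IIFC-like nuclei held 32, immune-like nuclei 22 and fibroblast-like nuclei 20 of 127. The other uninjured and day 3 libraries held only 14 and 19 Wnt5b UMIs, so each time rests mainly on a single library.

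**Figure D3:**
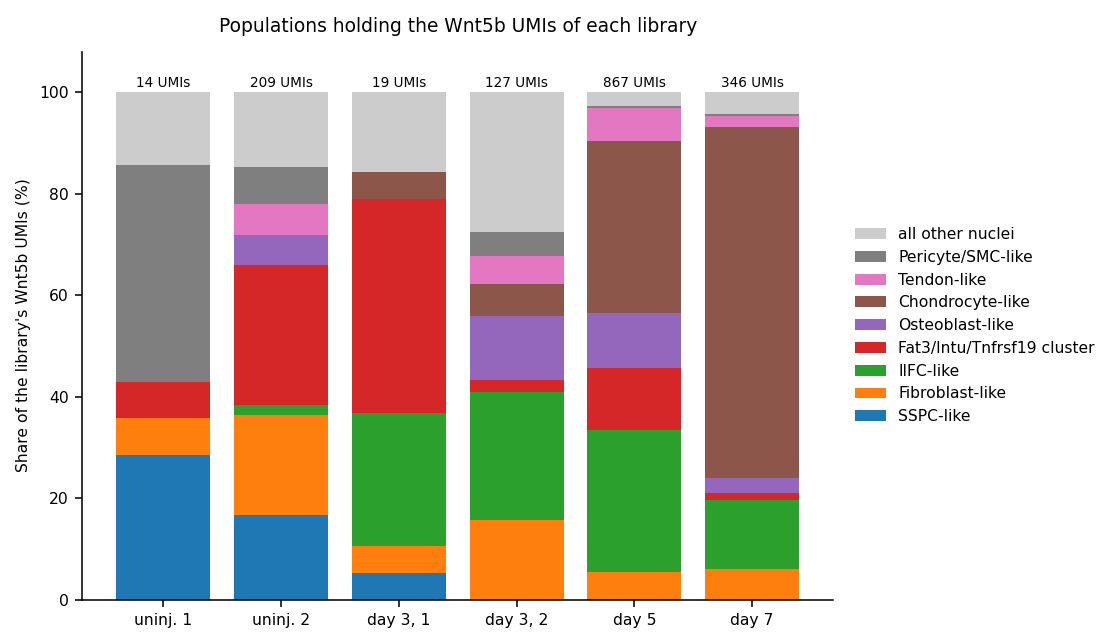
Share of each library's Wnt5b UMIs (y axis, %) by population (stacked colours), with the library's Wnt5b UMIs above each bar. The chondrocyte-like share was 33.8% at day 5 and 69.1% at day 7, and the uninjured replicate 1 and day 3 replicate 1 bars rest on only 14 and 19 UMIs.

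Wnt16 was highest in the Fat3 cluster. It was 100.2 CPM in the Fat3 cluster (78.0 to 127, 69 UMIs), 57.4 CPM in osteoblast-like nuclei (36.4 to 86.2, 23 UMIs) and 30.9 CPM in tendon-like nuclei (20.7 to 44.4, 29 UMIs), each with an interval that overlapped that of its neighbour in this order. A single nucleus held 13 of the 23 osteoblast-like UMIs, and without it the level was 26.3 CPM, below that of tendon-like nuclei. Chondrocyte-like (9.65 CPM), IIFC-like (4.70 CPM) and fibroblast-like (3.93 CPM) nuclei were lower, and endothelial-like and immune-like nuclei had 3 UMIs and 1 UMI. The Fat3 cluster was 3.07% of nuclei and held 37.1% of the Wnt16 UMIs. With nuclei thinned to 500 UMIs, 6.19% of its nuclei (3.24 to 10.6%) had a Wnt16 UMI, against 0 of 1512 immune-like nuclei, which allows a share of up to 0.198%. Unthinned, the shares were 19.1% and 0.0660%, at median depths of 2131.5 and 2200 UMIs.

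Within the Fat3 cluster, Wnt16 was 247 CPM in uninjured replicate 2 (173 to 342, 36 UMIs), 124 CPM in day 3 replicate 2 (61.9 to 222, 11 UMIs), 54.9 CPM at day 5 (34.4 to 83.1, 22 UMIs) and 0 at day 7 (up to 83.5 CPM at the floor of 3 UMIs). Tendon-like nuclei went from 172 CPM in uninjured replicate 2 (110.0 to 255, 24 UMIs) to 19.7 and 23.0 CPM in the day 3 replicates (1 and 4 UMIs) and 0 UMIs at day 5 (up to 6.36 CPM) and at day 7 (up to 30.4 CPM). In both populations the uninjured level lay above the day 5 interval. The uninjured value comes from replicate 2 only. Replicate 1 had 2 nuclei of the Fat3 cluster and 3 tendon-like nuclei, with no Wnt16 UMI. This allows up to 1205 and 686 CPM, so replicate 1 cannot be set against these levels. Its stromal nuclei, which leave out tendon-like nuclei, also held no Wnt16 UMI, which allows up to 13.3 CPM in their sum. The osteoblast-like level at day 5 was 84.9 CPM (22 UMIs) with the nucleus of 13 UMIs and 37.6 CPM without it.

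With all libraries summed, Wnt2, a canonical ligand, was highest in SSPC-like nuclei. Its level was 105 CPM there (79.8 to 136, 57 UMIs), 8.13 CPM in fibroblast-like nuclei (29 UMIs), 4.94 CPM in IIFC-like nuclei (21 UMIs) and 0.644 CPM in chondrocyte-like nuclei (1 UMI). The Fat3 cluster had no Wnt2 UMI. Within uninjured replicate 2, IIFC-like nuclei held 81.8 CPM (39.2 to 150, 10 UMIs), with an interval that overlapped that of SSPC-like nuclei (91.4 to 170). The fibroblast-like interval overlapped the SSPC-like one in uninjured replicate 1 (17.9 to 91.5 and 54.7 to 324). In uninjured replicate 2 the fibroblast-like interval (12.7 to 33.0) lay below it. SSPC-like nuclei were 1.85% of nuclei and held 42.5% of the Wnt2 UMIs (34.0 to 51.4%). Among SSPC-like nuclei, 18.8% had a Wnt2 UMI against 0.462% of immune-like nuclei, at median depths of 3200 and 2200 UMIs, and thinned to 500 UMIs the shares were 1.71% (2 of 117 nuclei) and 0.0661% (1 of 1512), with overlapping intervals.

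The SSPC-like level of Wnt2 was 149 CPM in uninjured replicate 1 (54.7 to 324, 6 UMIs) and 126 CPM in uninjured replicate 2 (91.4 to 170.1, 43 UMIs), 73.5 CPM at day 5 (6 UMIs) and 69.6 CPM at day 7 (2 UMIs), with overlapping intervals. One nucleus of uninjured replicate 2 held 15 Wnt2 UMIs, and the level of its group was 84.6 CPM without it. The day 3 libraries had only 5 and 3 SSPC-like nuclei with no Wnt2 UMI, so a change within them was not detectable at this depth. In fibroblast-like nuclei, Wnt2 was 44.4 and 21.1 CPM in the uninjured replicates (7 and 19 UMIs), 0 and 1.57 CPM at day 3 (0 and 1 UMI), 1.41 CPM at day 5 (2 UMIs) and 0 at day 7. The day 3 replicate 1 value of 0 allows up to 21.9 CPM at the floor of 3 UMIs, which is not below uninjured replicate 2.

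Wnt5a, the second non-canonical ligand, was spread over the mesenchymal populations. It was 47.9 CPM in the Fat3 cluster (33.0 to 67.3, 33 UMIs), 40.6 CPM in SSPC-like (22 UMIs), 32.5 CPM in osteoblast-like (13 UMIs), 25.6 CPM in IIFC-like (109 UMIs) and 24.4 CPM in fibroblast-like nuclei (87 UMIs), and neighbours in this order did not differ beyond counting error. Chondrocyte-like nuclei held 14.2 CPM (22 UMIs), with an interval below that of the Fat3 cluster. Immune-like nuclei held 3.03 CPM (17 UMIs) and endothelial-like nuclei 2.18 CPM (7 UMIs). After thinning, 2.58% of nuclei of the Fat3 cluster had a Wnt5a UMI, against 0.265% of immune-like nuclei. In the nuclei of all libraries summed, chondrocyte-like nuclei were thus among the highest for Wnt5b and below the Fat3 cluster for Wnt5a. Within day 5, the Wnt5a intervals of chondrocyte-like nuclei (18.4 CPM) and the Fat3 cluster (42.4 CPM) overlapped. Fibroblast-like nuclei held 25.4 and 32.2 CPM of Wnt5a when uninjured, 14.6 and 20.4 CPM at day 3 and 21.9 CPM at day 5, with overlapping intervals.

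Wnt11 and Wnt4 were rare. Wnt11, known for its part in cell polarity, was 20.3 CPM in SSPC-like nuclei (10.1 to 36.4, 11 UMIs), 9.01 CPM in chondrocyte-like nuclei (14 UMIs) and 4.77 CPM in fibroblast-like nuclei (17 UMIs). Of the 11 SSPC-like UMIs, 10 came from the uninjured libraries, and the 14 chondrocyte-like UMIs came from days 5 and 7. Of the 8 immune-like Wnt11 UMIs, 5 lay in a cluster led by Dscam, Htr7 and Ctnnd2, at 10.8 CPM. Wnt4 did not pass 10 CPM in any named population. Its 4 UMIs in osteoblast-like nuclei gave 9.99 CPM and its 26 UMIs in immune-like nuclei 4.64 CPM (3.03 to 6.80), with overlapping intervals, so no population stood apart at this depth.

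Axin2 is a feedback inhibitor that β-catenin induces. With all libraries summed, its highest levels were not in the populations highest for Wnt5b. It was 38.8 CPM in adipocyte-like (20.0 to 67.7), 22.6 CPM in Schwann-like (5 UMIs) and 18.5 CPM in SSPC-like nuclei (8.86 to 34.0, 10 UMIs). Fibroblast-like nuclei held 10.9 CPM (39 UMIs) and osteoblast-like nuclei 9.99 CPM (2.72 to 25.6, 4 UMIs). IIFC-like nuclei held 4.47 CPM (19 UMIs) and chondrocyte-like nuclei 3.86 CPM (6 UMIs). The osteoblast-like UMIs came from day 3 replicates 1 (1 UMI in 3 nuclei) and 2 (3 UMIs in 9 nuclei). Within day 5, fibroblast-like, IIFC-like and chondrocyte-like nuclei held 2.12, 1.68 and 3.24 CPM, with overlapping intervals. Within day 7 they held 6.25, 6.46 and 5.26 CPM, also with overlapping intervals. All 12 adipocyte-like UMIs came from uninjured replicate 2, and 6 of them from 1 nucleus. The Fat3 cluster, high for Wnt5b, Wnt16 and Wnt5a, had 1 Axin2 UMI (1.45 CPM). Thinned to 500 UMIs, 1.02% of fibroblast-like nuclei and 0 of 1512 immune-like nuclei had an Axin2 UMI, and unthinned the shares were 3.70% and 0.132%.

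The fibroblast-like nuclei were not uniform in Axin2. Their cluster led by Luzp2, Ntng1 and Tenm2 held 49.6 CPM (29.9 to 77.5, 19 UMIs) and the larger cluster led by Fgf7, Brinp1 and Bmper held 6.28 CPM (3.84 to 9.70, 20 UMIs), with intervals that did not overlap. Of the 19 UMIs of the Luzp2 cluster, 4 came from uninjured replicate 1 (43.5 CPM), 13 from uninjured replicate 2 (61.2 CPM) and 1 from day 5 (16.5 CPM). This cluster made up 34 of 73 and 39 of 155 fibroblast-like nuclei in the uninjured libraries. The part of this mixture in the fibroblast-like Axin2 level of a library was not tested.

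A Wnt5b UMI was found in 700 of all 6312 nuclei, in 65 of the 260 nuclei with Wnt5a, 38 of the 107 with Wnt16, 20 of the 55 with Wnt11, 17 of the 85 with Wnt4, 16 of the 77 with Wnt2 and 16 of the 91 with Axin2. Depth was not matched in these counts, which stand without a test. Across 56 sums of nuclei (1 per population and library with at least 30000 UMIs), the levels most like that of Wnt2 on a log scale were those of Pi16 (r = 0.85), Duox1 (r = 0.84) and Clec3b (r = 0.79). Wnt5b was most like Slc8a3 (r = 0.76), Sobp (r = 0.76) and Dlx6os1 (r = 0.75). Wnt16 was most like Dlx5 (r = 0.79), Syt9 (r = 0.79) and Gm42303 (r = 0.73). The nearest genes of Wnt5a were Adamts2 (r = 0.69) and Prrx1 (r = 0.65), those of Wnt11 4930404H11Rik (r = 0.78) and Osr2 (r = 0.77), those of Axin2 Maob (r = 0.76) and Chrd (r = 0.72), and that of Wnt4 Gm47922 (r = 0.65). Among members, Wnt2 and Wnt11 (r = 0.64) and Wnt2 and Axin2 (r = 0.52) were most alike, and Wnt5b and Wnt16 had r = 0.36. These values describe the sums only, which share libraries, depth and clusters, and many of them hold few or no UMIs of a member.

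The question of what injury does to the ligands could be tested between the uninjured and day 3 libraries, with stromal nuclei summed per library and edgeR's quasi-likelihood test. Over all 9699 genes tested there, 9.22% were called at an adjusted p under 0.05 (3.97% higher, 5.25% lower). In stromal nuclei, Wnt2 was 57.8 and 46.7 CPM in the uninjured replicates (13 and 72 UMIs), 12.6 and 1.70 CPM in the day 3 replicates (5 and 3 UMIs), 2.38 CPM at day 5 (13 UMIs) and 2.48 CPM at day 7 (4 UMIs). Axin2 was 35.6 and 20.8 CPM when uninjured (8 and 32 UMIs), 2.52 and 10.2 CPM at day 3 (1 and 18 UMIs), 1.83 CPM at day 5 and 6.21 CPM at day 7. The day 7 value depends on the filter on nuclei: over all barcodes Axin2 was 51.1 CPM at day 7 (230 UMIs), the highest of the 6 libraries, and 217 of these UMIs lay in barcodes that the filter removed. The day 7 barcodes removed within the looser filter (2093) had a median of 16.4% ribosomal protein UMIs, against 0.167% in the 1351 kept. Ttr, chosen after its values were seen, was 3422 CPM in them and 1.90 CPM in the kept ones. The filter also removed 87 of 117 Wnt5a and 186 of 570 Wnt5b UMIs of day 7. Over all barcodes, the other libraries held Axin2 between 3.17 CPM at day 5 and 18.0 CPM in uninjured replicate 2. Of the 4712 barcodes of day 3 replicate 2, a library of the test, the filter kept 1720. There it removed 33 of 47 Wnt2, 206 of 274 Wnt5a, 454 of 853 Wnt5b and 76 of 124 Axin2 UMIs. In stromal nuclei, Wnt5a was 48.9 and 35.7 CPM when uninjured and 15.1 and 19.8 CPM at day 3. It was 28.4 CPM at day 5 and 14.9 CPM at day 7. For Wnt2, Axin2 and Wnt5a in stromal nuclei, both uninjured libraries lay above both day 3 libraries.

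For Wnt5b, the uninjured replicates themselves stood far apart, at 26.7 and 97.3 CPM (6 and 150 UMIs), and the day 3 replicates at 40.3 and 44.7 CPM (16 and 79 UMIs) lay between them. The later libraries held 143 CPM at day 5 (134 to 154, 783 UMIs) and 199.9 CPM at day 7 (179 to 223, 322 UMIs), above the intervals of the other 4 libraries. Wnt16 was 0 and 25.3 CPM when uninjured, 0 and 8.48 CPM at day 3, 14.5 CPM at day 5 and 6.83 CPM at day 7. Wnt11 was 22.2 and 8.44 CPM when uninjured, 2.52 and 4.53 CPM at day 3, 2.75 CPM at day 5 and 6.83 CPM at day 7. Wnt4 ranged from 0 to 6.22 CPM with no more than 13 UMIs in a library. Days 5 and 7 have 1 library each, and no test between them and other times was run. In summed nuclei, fewer cells of a type and less RNA per cell cannot be told apart.

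**Figure D4:**
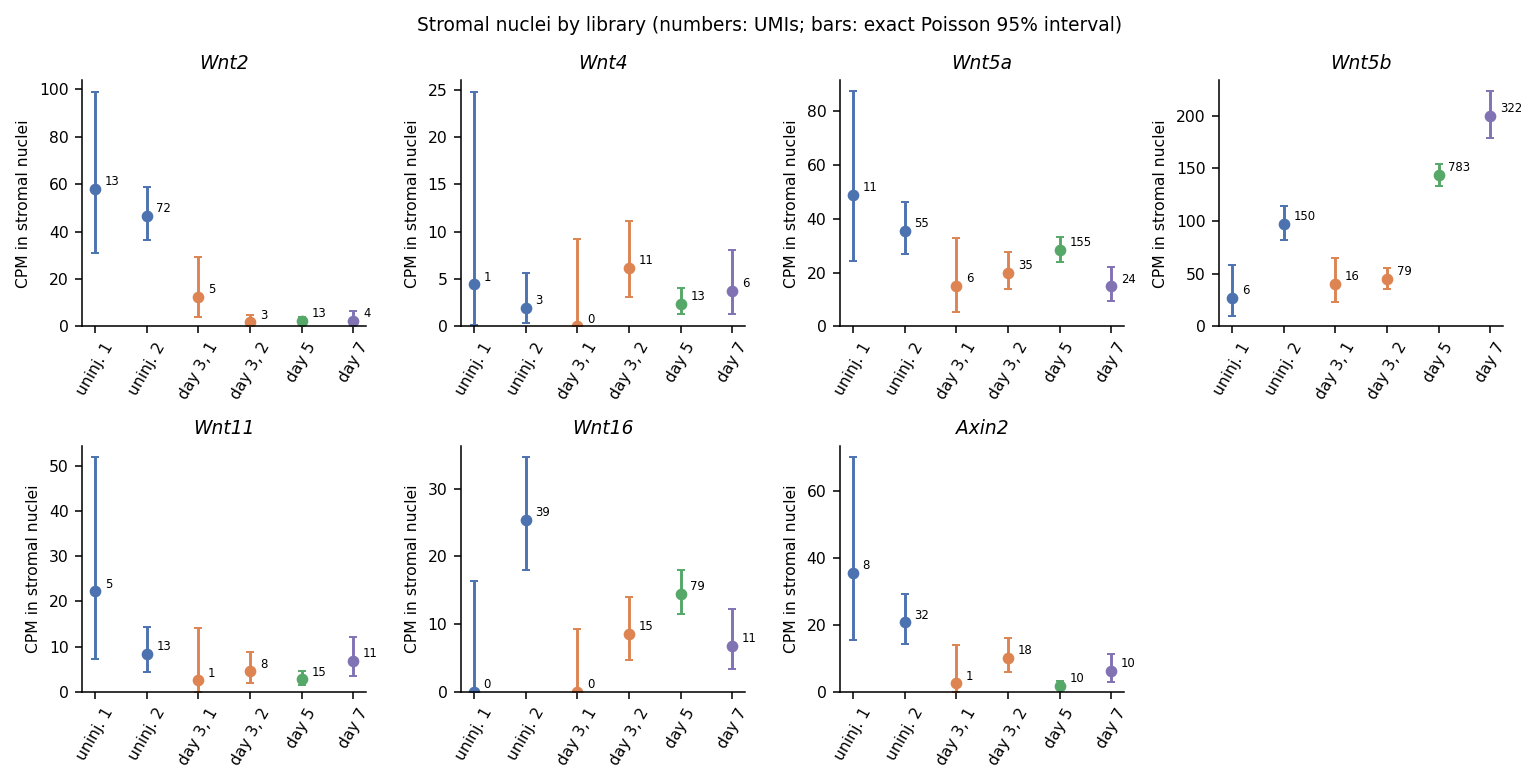
Level of each gene in the stromal nuclei of each library (x axis; y axis, CPM), with exact Poisson 95% intervals and the number of UMIs beside each point. Wnt2 was 57.8 and 46.7 CPM in the uninjured replicates and at most 12.6 CPM after fracture, and Wnt5b reached 143 CPM at day 5 and 199.9 CPM at day 7.

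With p adjusted over those 9699 genes by the Benjamini-Hochberg method, 1 of the 4 genes with enough UMIs to be tested fell at day 3. Wnt2 had a log2 fold change of -3.45 (SE 0.89, adjusted p = 0.0397) and was lower in 4 of 4 pairs of libraries. The other 3 did not pass the threshold of 0.05. Axin2 had a log2 fold change of -1.82 (SE 0.72, adjusted p = 0.166) and Wnt5a one of -1.23 (SE 0.54, adjusted p = 0.219), each lower in 4 of 4 pairs in CPM. Wnt5b had one of -0.71 (SE 0.54, adjusted p = 0.518), lower in 2 of 4 pairs. Wnt4, Wnt11 and Wnt16 did not pass the filter on low counts. The median log2 fold change of the 4 tested was -1.53, beside 0.05 over all genes tested. Axin2 could pass the low-count filter through its uninjured levels alone (35.6 and 20.8 CPM, against 2.52 and 10.2 CPM at day 3). Genes high only before injury can thus enter this median. It describes these 4 genes only and does not show a shared fall of the members.

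The call for Wnt2 was lost with DESeq2 (adjusted p = 0.0507), at a coarser cluster resolution (0.0779), without integration (0.193), without uninjured replicate 2 (0.177) and without day 3 replicate 2 (log2 fold change -1.85, adjusted p = 0.179). Over its 13 alternatives the edgeR or DESeq2 adjusted p ran from 1.6e-05 to 0.193, with the same sign in all. Uninjured replicate 2 and day 3 replicate 2, which were counted with the same Cell Ranger version and gene list, had 46.7 and 1.70 CPM of Wnt2. For Axin2 this pair had 20.8 and 10.2 CPM, for Wnt5a 35.7 and 19.8 CPM and for Wnt5b 97.3 and 44.7 CPM.

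The make-up of the stromal nuclei moved with these values. SSPC-like nuclei were 18.5% and 15.7% of stromal nuclei in the uninjured replicates, 4.00% and 1.18% at day 3, and then 1.46% (day 5) and 1.87% (day 7). The summed level of the 6 SSPC markers, none at 0, ranged from 2156 to 2261 CPM in uninjured and from 189 to 362 CPM in fractured libraries. Chondrocyte-like nuclei were 0.570% to 2.42% of stromal nuclei in uninjured and day 3 libraries, 14.6% at day 5 and 30.5% at day 7, and the 6 markers of their list summed to 93.1 to 230 CPM, 2157 CPM and 3705 CPM. The Fat3 cluster made up 1.61% and 16.8% of stromal nuclei in uninjured replicates 1 and 2. Fibroblast-like nuclei, which held 39 of the 79 stromal Axin2 UMIs, went from 58.9% and 44.2% in the uninjured to 30.4% and 35.4% of stromal nuclei in the day 3 replicates, and IIFC-like nuclei from 15.3% and 18.5% to 58.4% and 50.8%. The 8 fibroblast markers summed to 5574 and 6617 CPM in the uninjured and to 1863 (1 marker at 0) and 1989 CPM in the day 3 replicates, and the 6 IIFC markers to 1698 and 3344 CPM and to 4375 and 8314 CPM. The part of these shares in the stromal levels of the 7 genes was not tested. The immune marker list summed to 8.89 and 13.0 CPM in the stromal nuclei of uninjured and to 151 and 501 CPM in those of day 3 libraries, and the endothelial list to 320.1 and 191 CPM and to 25.2 and 43.6 CPM. Their part was not tested either.

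When all non-myogenic nuclei were summed, 6 of the 7 genes could be tested and none was called by edgeR or by DESeq2. In edgeR, 2 of the 6 had an unadjusted p under 0.05, for which no share of all genes is given here. Of the 12682 genes tested, edgeR called 8.67% at an adjusted p under 0.05 (2.72% higher and 5.95% lower). Axin2 came nearest, with a log2 fold change of -2.61 (SE 0.61, adjusted p = 0.0525), and was lower in 4 of 4 pairs. It passed the threshold when no filter on low counts was used (-2.50, adjusted p = 0.0339). Wnt2 had a log2 fold change of -2.20 (adjusted p = 0.190), ran from -3.47 to -0.97 with a library left out, and was called in edgeR without day 3 replicate 1 (adjusted p = 0.0411). The fold change was -1.58 (0.225) for Wnt11, -0.91 (0.343) for Wnt5a, -0.88 (0.441) for Wnt5b and 0.02 (0.991) for Wnt4. In endothelial-like nuclei, no member passed the filter on low counts, while 4.07% of the 7326 genes tested were called (2.1% higher, 1.97% lower). Whether a day 3 change differed between stromal and endothelial-like nuclei was tested for 4 members with an interaction term and none was called (3.81% of 8955 genes were, 1.68% with a higher and 2.13% with a lower change in stromal nuclei), with Wnt5a nearest at an adjusted p = 0.069 on 0 endothelial-like UMIs in uninjured and 5 in day 3 libraries. Its adjusted p ran from 0.0262 to 0.377 over the alternatives.

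The other genes of the pathway were described from fixed lists in the same stromal test, with counts over all non-myogenic nuclei beside them. No alternatives are given here for their calls, several of which lay close to the threshold. Of 13 other Wnt ligand genes, 2 were tested and both were called lower, as were 5.25% of all genes tested. Wnt10b could pass the filter on low counts through its uninjured levels alone, so these 2 do not describe the other ligands. With all non-myogenic nuclei summed, 3 were tested and 1 was called lower (5.95% of all genes). Wnt9a went from 120.0 and 56.5 CPM to 10.1 and 26.0 CPM (log2 fold change -2.14, SE 0.57, adjusted p = 0.0432), and was 10.8 and 11.8 CPM at days 5 and 7. Wnt10b, a ligand known to favour bone formation, went from 22.2 and 38.3 CPM to 2.52 and 6.79 CPM (-2.62, SE 0.68, adjusted p = 0.0405). Each was lower in both day 3 than in both uninjured libraries.

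Neither gene of ligand secretion was called. Wls held 303 CPM and Porcn 17.5 CPM over all stromal nuclei. None of 13 receptor genes tested was called, with 2 at an unadjusted p under 0.05, for which no share of all genes is given here. Ror1 and Ror2, receptors of Wnt5a, were the receptors with the highest CPM in stromal nuclei, at 591 and 395 CPM. None of 14 intracellular or nuclear genes tested was called, and none had an unadjusted p under 0.05. Tcf7l2, a partner of β-catenin, held 713 CPM and the kinase Gsk3b 490.3 CPM. With all non-myogenic nuclei summed, 3 of 14 receptor genes and 1 of 14 intracellular or nuclear genes were called lower, where 5.95% of all genes tested were. None in these lists was called higher there.

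Of 11 feedback targets of β-catenin, 6 besides Axin2 were tested, 1 rose and 1 fell, where 9.22% of all genes were called. Lgr5, a receptor of R-spondins, went from 8.89 and 16.2 CPM to 42.8 and 113 CPM (log2 fold change 2.43, SE 0.56, adjusted p = 0.0262). Tnfrsf19 went from 88.9 and 32.4 CPM to 7.55 and 10.7 CPM (-2.57, SE 0.68, adjusted p = 0.0423), and is also a leading gene of the Fat3 cluster. With all non-myogenic nuclei summed, 7 of the list were tested, 0 were called higher and 2 lower (2.72% and 5.95% over all genes). The rise of Lgr5 was thus not called there.

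Of 15 secreted modulators, 8 were tested, 2 rose and 2 fell (3.97% and 5.25% over all genes). Cthrc1, a collagen-associated protein that binds Wnt and Ror2, went from 8.89 and 22.1 CPM to 151 and 265 CPM (log2 fold change 3.46, SE 0.45, adjusted p = 0.00271). The Wnt antagonist Sfrp1 went from 0 and 22.1 CPM to 116 and 215 CPM (3.32, SE 0.63, adjusted p = 0.0124). Another of the same family, Sfrp4, went from 80.0 and 220.0 CPM to 0 and 14.7 CPM (-4.04, SE 0.73, adjusted p = 0.00985). Dkk2, which binds Lrp5 and Lrp6, went from 111 and 560.0 CPM to 62.9 and 37.9 CPM (-2.84, SE 0.67, adjusted p = 0.0279). For all 4, every day 3 library lay on one side of both uninjured libraries. With all non-myogenic nuclei summed, 8 modulators were tested, 2 were called higher and 1 lower. The median log2 fold change was -0.36 over the modulators tested and -0.19 over the receptors tested, beside 0.05 over all genes.

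**Figure D5:**
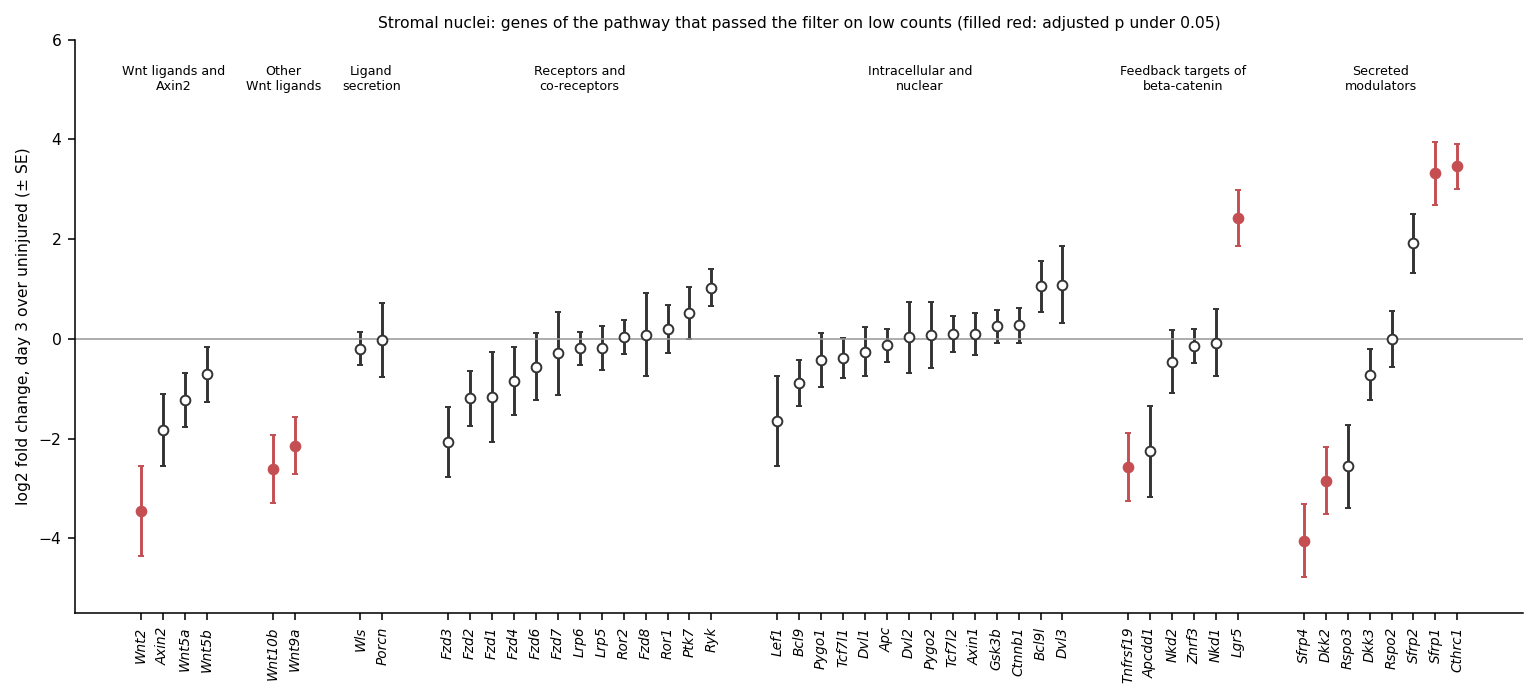
Fitted log2 fold change of day 3 over uninjured stromal nuclei (y axis, ± SE, 2 libraries a group) for each pathway gene that passed the filter on low counts (x axis, by list), with called genes in filled red. Wnt2 (-3.45), Wnt10b (-2.62), Wnt9a (-2.14), Tnfrsf19 (-2.57), Sfrp4 (-4.04) and Dkk2 (-2.84) were lower at day 3 and Lgr5 (2.43), Sfrp1 (3.32) and Cthrc1 (3.46) were higher.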

How the data were processed

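Nuclei of mouse periosteum and callus were profiled by droplet snRNA-seq (Chromium 3′), in 2 uninjured, 2 day 3, 1 day 5 and 1 day 7 libraries. The authors deposited raw UMI counts per gene and barcode, made with Cell Ranger on mm10 from exonic and intronic reads. Per the file headers, uninjured replicate 1, day 5 and day 7 were counted with Cell Ranger 6.0.0 and the others with 7.1.0, with 31055 to 32287 genes listed. The 30406 genes common to all held 98.9 to 99.8% of each library's UMIs. Libraries were taken as replicates of a group by the labels. As each pools mice, p-values measure the spread between these pools.

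A nucleus was kept when 200 to 5000 genes were detected in it and when mitochondrial RNA gave less than 2% and ribosomal protein RNA less than 1.5% of its UMIs (644 to 2423 kept per library), myogenic nuclei were removed, and libraries were integrated and clustered in Seurat 5.3.0 (20 components, resolution 1.3) in R 4.3.3. Clusters were named by marker lists. The details of the scoring, its tie margin and the inclusion of the Fat3 cluster in the stromal nuclei were chosen after seeing the data. Scrublet (scanpy 1.11.5) set thresholds that marked only 19 barcodes, so the top 6% of scores per library were marked and kept, and removed in an alternative.

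CPM were computed from UMIs summed over nuclei. Day 3 was tested against uninjured on these sums with edgeR 4.0.16 (filterByExpr, TMM, glmQLFit, glmQLFTest, Benjamini-Hochberg over all genes tested, threshold 0.05), with SE taken as the fold change over the square root of F. Alternatives used DESeq2 1.42.0, RLE scaling, no filter, a looser filter on nuclei, other clusterings, and each library left out. Intervals are 95% exact Poisson (CPM) or Clopper-Pearson (shares) and cover counting error only, and the floor for a count of 0 is 3 UMIs. The test on immune-like nuclei was not run, because a library had 14 such nuclei, under the 20 required. Likeness is Pearson's r of log2(CPM + 10). On simulated counts for the stromal comparison, 190 of 200 changed genes among 9794 tested were recovered, with 7 false calls. The simulated log2 fold change was 3, so this recovery does not apply to smaller changes. The named genes are the 7 genes and, from each pathway list, up to 4 called genes or, where none was called, up to 2 with the highest stromal CPM. The genes and lists were chosen with earlier results of these data known.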

Additional observations from a re-analysis of the deposited data

How the results depend on the processing

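Under other processing, the count of genes called in stromal nuclei (894) was 1381 with no filter on low counts, 357 without integration and 483 to 1085 with a library left out (483 without uninjured replicate 2). Wnt2 in stromal nuclei had a log2 fold change of -3.10 with DESeq2, -3.12 at resolution 0.8 and -2.80 without integration, each no longer past the threshold, and -4.99 to -1.85 with a library left out. Wnt5b there turned to 0.34 without integration and ran from -1.26 to 0.62 with a library left out, positive without uninjured replicate 2. Over all nuclei (1099), the count was 2557 with no filter and 473 to 1117 with a library left out. There, Wnt4 turned to -0.30 with DESeq2 and -0.049 with doublets removed, and Wnt5b ran from -1.41 to 0.26 with a library left out, positive without uninjured replicate 2. In endothelial-like nuclei (298), counts were 889 with no filter, 193 with doublets removed and 149 to 490 with a library left out. For the interaction (341), they were 128 with DESeq2 and 173 to 423 with a library left out. Causes were not tested.

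Wnt2 in SSPC-like nuclei was 62.3 CPM without integration and 69.8 to 111 CPM with a library left out. Wnt5b in chondrocyte-like nuclei was 311 CPM with the looser filter on nuclei and 307 to 395 CPM with a library left out, and the share with a UMI was 29.3% at 1000 UMIs and 42.0% unthinned. With a library left out, Wnt16 in the Fat3 cluster ran from 60.8 to 163 CPM and Axin2 in adipocyte-like nuclei from 0 to 43.2 CPM. Values of the Fat3 cluster could not be computed without integration, at resolution 0.8 or with the looser filter, where most of its nuclei were called osteoblast-like. No paired analysis was possible because the labels number no replicates across groups. With few UMIs, Wnt4 and Wnt11 and any gene in populations of a few nuclei were limited by depth.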
